A study of Homo sapiens with 9 samples.

Results

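The genes described here are 10 genes of metallothionein and zinc control in Huh-7, a hepatocellular carcinoma line. They were taken by symbol from a fixed list and matched to their Ensembl identifiers, and all 10 were found among the 60664 identifiers of the count table. They are the metallothioneins MT1E, MT1F, MT1G, MT1M, MT1X and MT2A, the zinc-sensing transcription factor MTF1, the zinc exporter SLC30A1, and the zinc importers SLC39A4 and SLC39A14. All 10 also passed the filter on low counts, so that they are 10 of 17207 tested genes.

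The study sequenced mRNA of 3 Huh-7 lines, with 3 libraries each, to compare the transcriptomes of cells lacking 1 of 2 vault RNAs, which are short noncoding RNAs, with that of the parental cells. The groups were wild type (WT), vtRNA1-1 knockout (1-1 KO) and vtRNA1-2 knockout (1-2 KO) cells. The authors derived the 1-2 KO line from the WT cells, as a clone of 1 cell, with CRISPR/Cas9 and paired guides, while WT and 1-1 KO cells came from another laboratory. All were harvested at 80% confluency from DMEM F12 medium with serum and antibiotics, and the labels give no treatment. With 1 line per genotype, the effect of a knockout and the history of a line cannot be told apart, and a p-value measures the spread between libraries of 1 line only. Both knockouts are set against the same 3 WT libraries.

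Metallothioneins are small cysteine-rich proteins that bind zinc, copper and cadmium and buffer free zinc in the cell. When free zinc rises, MTF1 binds metal response elements in promoters and raises the transcription of metallothionein genes and of SLC30A1, the exporter of the plasma membrane that is also called ZnT1. Importers of the ZIP family bring zinc into the cytosol. The liver is a main site of metallothionein production, and there SLC39A14, also called ZIP14, takes up zinc during inflammation.

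The libraries held between 32384469 and 41782387 counts, with a common biological coefficient of variation of 5.55%. All 11 hepatocyte-derived markers were above 1 CPM (reads of a gene scaled to the size of its library) in every line, and their summed level was 19053 to 19666 CPM in WT libraries, 35299 to 36072 CPM in 1-1 KO and 25492 to 27332 CPM in 1-2 KO cells. The summed level of 5 fibroblast markers was 34.3 to 35.6 CPM in WT libraries, 78.3 to 89.3 CPM in 1-1 KO and 58.9 to 64.5 CPM in 1-2 KO, with 0 of 5 at 0 throughout. That of 4 endothelial markers was 7.39 to 8.04 CPM, 6.40 to 7.22 CPM and 0.831 to 1.10 CPM in the same order, and that of 5 immune markers was 1.52 to 1.63 CPM, 3.38 to 3.62 CPM and 2.62 to 3.18 CPM, with 1 marker of each of these lists at 0 throughout. These sums differed between the lines, and their part in the results was not tested. Replicate 1 of the 1-2 KO cells stood apart from the other 2 libraries of its line, where the chi-square of the counts, divided by its degrees of freedom, was 15.1 and 16.1 against 2.67 between the others. The WT libraries also differed among themselves, by 5.03, 6.41 and, between replicates 1 and 3, 10.4, against 2.07 to 3.46 among the 1-1 KO libraries. Without WT replicate 3, 9 of the 10 genes were called in 1-1 KO cells and 7 in 1-2 KO cells, as with it. The deleted genes could not be checked in these mRNA libraries, since VTRNA1-2 was at 0 counts throughout, WT included, and a single count of VTRNA1-1 came from 1 WT library. In such bulk samples, fewer cells with a transcript and less of it per cell cannot be told apart.

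The core of the metal response element was searched on both strands of the promoters, as TGCACNC and as TGCGCNC, in which N is any base. The 250 bases before the start of each gene were used, from RefSeq on GRCh38.p14, and 4 of the 10 genes were matched. The promoters of MT2A, MT1X and SLC30A1 are shown because these are the genes on which MTF1 is best known to act, with each core in capitals, including cores that read on the opposite strand. They span chr16:56608334-56608583 on the plus strand for MT2A, chr16:56682220-56682469 on the plus strand for MT1X and chr1:211579162-211579411 on the minus strand for SLC30A1, each written 5′ to 3′ along its gene.
MT2A: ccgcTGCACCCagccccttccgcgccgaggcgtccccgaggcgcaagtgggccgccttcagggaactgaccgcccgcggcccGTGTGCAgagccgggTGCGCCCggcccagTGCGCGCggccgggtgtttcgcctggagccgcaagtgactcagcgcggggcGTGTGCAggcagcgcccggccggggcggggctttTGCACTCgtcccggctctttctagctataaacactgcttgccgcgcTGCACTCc
MT1X: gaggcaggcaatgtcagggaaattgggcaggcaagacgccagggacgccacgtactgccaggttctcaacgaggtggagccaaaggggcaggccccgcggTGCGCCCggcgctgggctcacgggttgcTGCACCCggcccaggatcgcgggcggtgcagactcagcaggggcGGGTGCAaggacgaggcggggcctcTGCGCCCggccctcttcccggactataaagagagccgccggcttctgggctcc
SLC30A1: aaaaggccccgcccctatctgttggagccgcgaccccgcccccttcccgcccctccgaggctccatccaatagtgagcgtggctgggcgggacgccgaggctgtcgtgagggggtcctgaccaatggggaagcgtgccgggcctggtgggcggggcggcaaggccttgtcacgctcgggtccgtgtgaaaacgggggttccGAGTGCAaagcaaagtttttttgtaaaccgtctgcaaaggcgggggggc
The MT2A promoter held 7 cores, 5 of them TGCACNC and 2 TGCGCNC, and the nearest began 8 bases before the start of the gene. The MT1X promoter held 4 cores, 2 of each form, and the SLC30A1 promoter held 1, a TGCACNC on the opposite strand. The promoter of MTF1 itself held 0. Of 35116 promoters of this length, 24.8% held at least 1 core, 0.370% at least 4 and 0.120% at least 5. These are matches of letters, and binding was not measured.

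Per transcript length, MT2A was the most abundant of the 10 genes in each line. On the TPM scale, which divides counts by the length of the canonical transcript and scales each library to the same total, its level was 596 ± 9.45 (SD, n = 3) in WT, 877 ± 31.7 in 1-1 KO and 684 ± 43.0 in 1-2 KO cells. The importer SLC39A14 was second in each line, at 253 ± 2.34, 298 ± 3.25 and 378 ± 0.674 TPM, though in WT its libraries overlapped those of MT1E at 249 ± 8.30 TPM. The regulator and the second importer were last in each line: MTF1 was at 11.6 ± 0.165 TPM and SLC39A4 at 0.110 ± 0.0630 TPM in WT cells.

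Between these ends the order differed by line. In WT cells the levels fell in the order MT1E, MT1F, MT1X, MT1G, MT1M and SLC30A1, and MT1F at 164 ± 7.95 TPM overlapped MT1X at 154 ± 6.88 TPM. In 1-1 KO cells MT1F was above MT1E, MT1E overlapped MT1X, and MT1G came below MT1M, at 44.1 ± 2.86 against 72.7 ± 2.28 TPM. In 1-2 KO cells MT1G came next after SLC39A14, at 144 ± 9.0 TPM, its libraries overlapped those of MT1F, which in turn overlapped those of MT1E, and MT1M at 22.3 ± 1.58 TPM fell below SLC30A1 at 26.8 ± 0.933 TPM. With the length of all annotated exons in place of the canonical transcript, the middle ranks changed, and in WT cells SLC39A14 came after MT1E, at 294 ± 1.65 against 304 ± 12.6 TPM with overlapping libraries. MT2A was again first, and MTF1 and SLC39A4 were again last, in each line.

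The question of the main comparisons is which of these genes changed in each knockout line. In 1-1 KO cells 9 of the 10 genes differed from WT, 6 higher and 3 lower, beside 63.4% of all tested genes (32.5% higher and 30.9% lower). In 1-2 KO cells 7 of 10 differed, 1 higher and 6 lower, beside 54.4% of all tested genes (28.2% higher and 26.2% lower). Over the 10 genes the log2 fold changes had a median of 0.26 in 1-1 KO cells and of -0.37 in 1-2 KO cells, beside 0.01 and 0.02 over all tested genes. The libraries of 9 genes did not overlap between 1-1 KO and WT and those of 8 genes between 1-2 KO and WT, beside 68.9% and 58.4% of all tested genes. Past 2-fold and called were SLC39A4 and MT1G in 1-1 KO and MT1E in 1-2 KO cells, or 2 and 1 of 10, beside 13.4% and 11.7%. Calls here are those of edgeR's quasi-likelihood test with a Benjamini-Hochberg adjusted p under 0.05 over all tested genes.

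**Figure D1:**
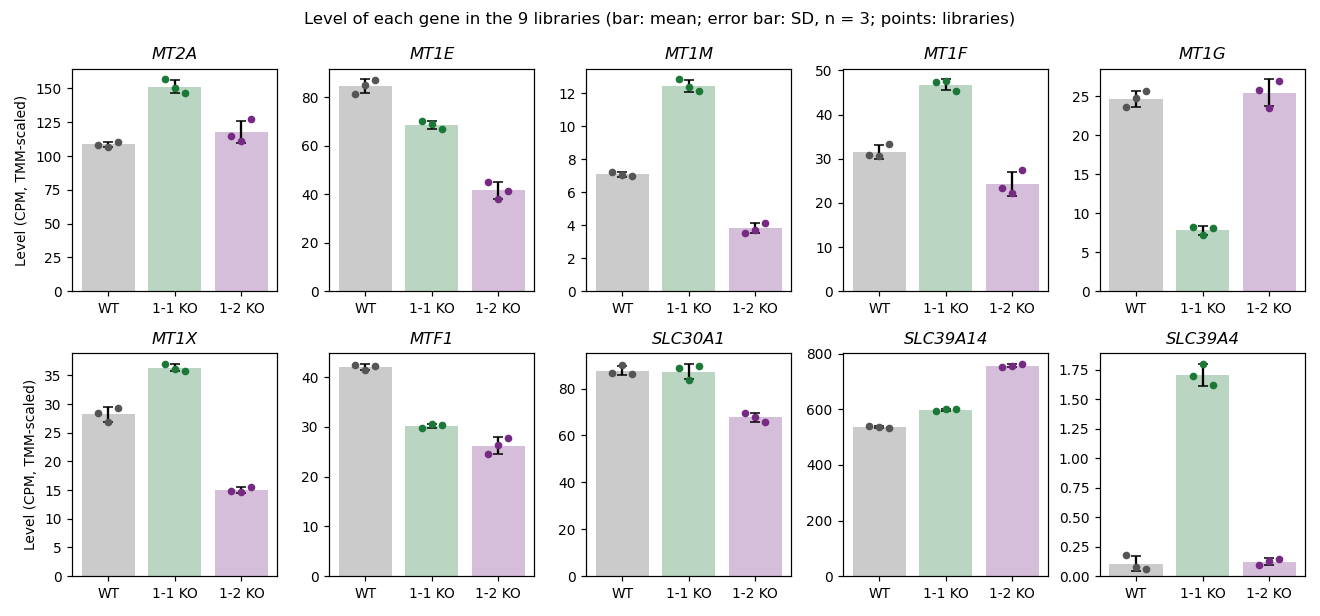
Level of each of the 10 genes in CPM (linear axes from 0, a scale of its own for each gene) in the 3 lines. Bars are means, error bars SD (n = 3) and points the libraries. In all 3 libraries of the 1-1 KO cells MT1G is low and SLC39A4 is high, and MT1E, MT1M, MT1X and MT1F are lowest in the 1-2 KO cells.

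The 6 metallothioneins lie in 1 cluster on chromosome 16 and differed in both directions. Each differed from WT in the 1-1 KO cells, 4 higher and 2 lower, while in the 1-2 KO cells 4 were lower, 0 were higher and 2 did not pass the test. Called were thus 100% and 66.7% of the 6, beside 63.4% and 54.4% of all tested genes. The median over the 6 was 0.42 on the log2 scale in 1-1 KO cells and -0.64 in 1-2 KO cells. The values of each follow in the order of the genes along the chromosome, in CPM after TMM scaling.

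MT2A, the main metallothionein of most human cells (ENSG00000125148, chromosome 16, 56608584 to 56609497, plus strand), was at 108.5, 107.0 and 110.7 CPM in the WT libraries, at 156.9, 150.2 and 147.0 CPM in 1-1 KO and at 115.1, 110.9 and 127.0 CPM in 1-2 KO. All 1-1 KO libraries lay above all others, and the 1-2 KO libraries lay just above the WT libraries without overlap. MT2A was 1.39-fold higher in 1-1 KO than in WT cells (log2 fold change 0.48, SE 0.05, edgeR adjusted p = 6.43e-07). In 1-2 KO cells the log2 fold change was 0.11 (95% interval 0.01 to 0.22, edgeR adjusted p = 0.0531), which did not pass the threshold. That call turned with the setting: it passed with a log2 fold change of 0.13 without replicate 1 of the 1-2 KO cells (edgeR adjusted p = 0.0404), 0.16 without replicate 2 (0.0148), 0.17 with scaling by library size alone (0.00597) and 0.12 where each library had to hold 10 counts or more (0.0485).

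MT1E (ENSG00000169715, 56625475 to 56627112, plus strand), a zinc-binding protein of the inducible MT1 group, was at 81.3, 85.1 and 87.0 CPM in WT, 70.0, 69.0 and 66.7 CPM in 1-1 KO and 45.2, 38.2 and 41.4 CPM in 1-2 KO. The lines did not overlap, and the order was WT, 1-1 KO, 1-2 KO from high to low. MT1E was 1.23-fold lower in 1-1 KO (log2 fold change -0.30, SE 0.05, edgeR adjusted p = 0.000162) and 2.03-fold lower in 1-2 KO cells (log2 fold change -1.02, SE 0.05, edgeR adjusted p = 1.27e-09).

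MT1M (ENSG00000205364, 56632659 to 56633981, plus strand), the least abundant of the 6 in WT cells, was at 7.24, 7.04 and 6.97 CPM in WT, 12.9, 12.4 and 12.2 CPM in 1-1 KO and 3.56, 3.72 and 4.14 CPM in 1-2 KO. The knockout lines lay on opposite sides of WT with no overlap. MT1M was 1.76-fold higher in 1-1 KO (log2 fold change 0.81, SE 0.07, edgeR adjusted p = 3.36e-07) and 1.86-fold lower in 1-2 KO cells (log2 fold change -0.90, SE 0.08, edgeR adjusted p = 5.1e-07).

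MT1F (ENSG00000198417, 56657731 to 56660698, plus strand) was at 30.8, 30.6 and 33.4 CPM in WT, 47.4, 47.5 and 45.3 CPM in 1-1 KO and 23.3, 22.2 and 27.4 CPM in 1-2 KO. Again the knockouts lay on opposite sides of WT without overlap. The gene was 1.48-fold higher in 1-1 KO (log2 fold change 0.57, SE 0.07, edgeR adjusted p = 4.29e-06) and 1.30-fold lower in 1-2 KO cells (log2 fold change -0.38, SE 0.07, edgeR adjusted p = 0.000335).

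MT1G (ENSG00000125144, 56666730 to 56668065), the only one of the 6 on the minus strand, was at 23.6, 24.8 and 25.7 CPM in WT, 8.18, 7.17 and 8.04 CPM in 1-1 KO and 25.8, 23.5 and 27.0 CPM in 1-2 KO. The 1-1 KO libraries lay far below the rest, while WT and 1-2 KO libraries overlapped. MT1G was 3.16-fold lower in 1-1 KO than in WT cells (log2 fold change -1.66, SE 0.07, edgeR adjusted p = 1.64e-10), the only one of the 6 past 2-fold there. In 1-2 KO cells its log2 fold change was 0.04 (95% interval -0.10 to 0.19, edgeR adjusted p = 0.601).

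MT1X (ENSG00000187193, 56682470 to 56684196, plus strand), whose promoter is shown above, was at 28.4, 26.8 and 29.4 CPM in WT, 37.0, 36.2 and 35.8 CPM in 1-1 KO and 14.9, 14.6 and 15.6 CPM in 1-2 KO. The 3 lines did not overlap. MT1X was 1.29-fold higher in 1-1 KO (log2 fold change 0.37, SE 0.05, edgeR adjusted p = 1.9e-05) and 1.87-fold lower in 1-2 KO cells (log2 fold change -0.91, SE 0.05, edgeR adjusted p = 4.25e-09). The promoter with 7 cores, that of MT2A, and the one with 4, that of MT1X, belong to genes that were both higher in 1-1 KO cells. There SLC30A1, with 1 core, was not called, and MTF1, with 0 cores, was lower. In 1-2 KO cells MT1X, SLC30A1 and MTF1 were called lower and MT2A was not called. Any link between cores and these changes was not tested.

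**Figure D2:**
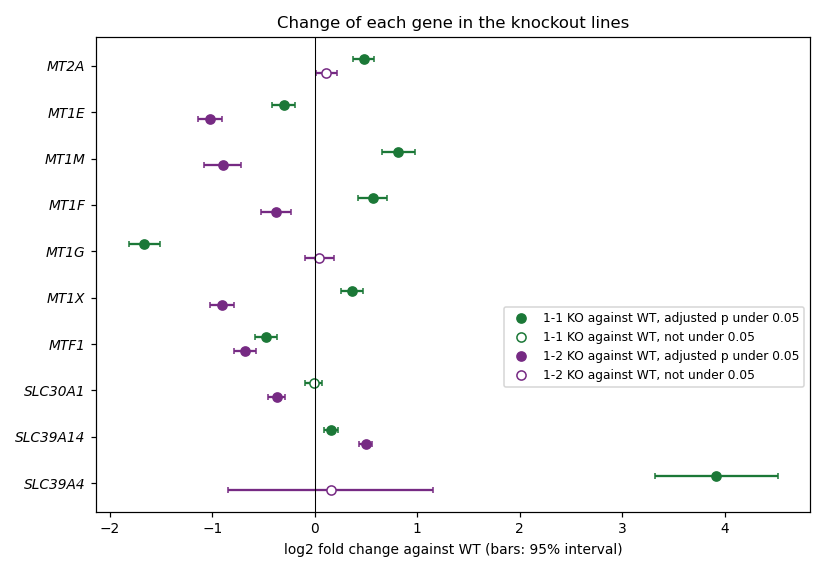
Log2 fold change of the 10 genes in 1-1 KO (green) and 1-2 KO (purple) cells against WT, with 95% intervals. Filled points have an edgeR adjusted p under 0.05 and open points do not. SLC39A4 in 1-1 KO cells lies farthest to the right at 3.92, MT1G in 1-1 KO cells farthest to the left at -1.66, and MT1M, MT1F and MT1X lie on opposite sides of 0 in the 2 knockouts.

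Counts of metallothionein genes are open to reads that match several of them. Of the 50-base windows of their canonical transcripts, 51.0% of those of MT1X, 19.9% of MT1G, 14.6% of MT1M, 11.1% of MT2A, 10.3% of MT1E and 6.12% of MT1F also occur in a transcript of another gene. For MT1X, 117 of its 355 windows occur in ENSG00000259827, a noncoding RNA that overlaps it on the same strand and had 0 counts in every library. How the authors' counting treated such reads is not given in the sources used here, so the values of MT1X and MT1G in particular are uncertain in their level.

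The sum over the 6 genes is less exposed to how reads were split between them. It was 280, 281 and 293 CPM in WT (285 ± 7.22, SD, n = 3), 332, 323 and 315 CPM in 1-1 KO (323 ± 8.72) and 228, 213 and 243 CPM in 1-2 KO cells (228 ± 14.7). The lines did not overlap, and the means were 1.14 times WT in 1-1 KO and 0.80 times WT in 1-2 KO cells, with no test of this sum of chosen genes. The 6 genes held 95.3% to 97.4% of the counts of all metallothionein genes of the table.

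The make-up of this sum also differed by line. MT2A took 37.8% to 38.8% of the summed counts in the WT libraries, 46.6% to 47.2% in 1-1 KO and 50.5% to 52.4% in 1-2 KO. The share of MT1E was 29.1% to 30.3% in WT, 21.1% to 21.4% in 1-1 KO and 17.1% to 19.8% in 1-2 KO. In both knockouts, therefore, MT2A took more and MT1E less than in any WT library. MT1G took 8.44% to 8.80% in WT, 2.22% to 2.55% in 1-1 KO and 11.0% to 11.3% in 1-2 KO, so that its share moved in opposite directions. A share also depends on the sum, which was 0.80 times WT in 1-2 KO cells. The levels of MT1G and MT2A did not pass the test there (log2 fold changes 0.04 and 0.11, edgeR adjusted p = 0.601 and 0.0531). The median ratio of MT1G to MT1F counts was 0.768 in WT, 0.172 in 1-1 KO and 1.06 in 1-2 KO cells.

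Along the chromosome the changes did not form a single block. Counted from the start of MT2A, MT1L starts at 8.98 kb, MT1E at 16.9 kb, MT1M at 24.1 kb, MT1A at 30.1 kb, MT1F at 49.1 kb, MT1G at 58.1 kb and MT1X at 73.9 kb. In 1-1 KO cells the genes that were lower, MT1E, MT1A and MT1G, alternated with genes that were higher. In 1-2 KO cells the lower genes ran from MT1L to MT1F and again at MT1X, with MT2A at one end and MT1G between them not passing the test. The median log2 fold change of the 50 tested genes around the cluster was -0.10 in 1-1 KO and 0.17 in 1-2 KO cells, and that of chromosome 16 was -0.02 and 0.07. The 0.17 of the neighbours in 1-2 KO cells is larger than the 0.11 of MT2A and the 0.04 of MT1G, the pair that did not pass the test there.

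Of 15 further metallothionein genes and pseudogenes, 3 passed the filter, and MT3 and MT4 had 0 counts in every library. In 1-1 KO cells 1 was higher and 1 lower, and in 1-2 KO cells 3 were lower. Of the 3, MT1DP was at only 0.204 CPM in WT and 0.0662 CPM in 1-2 KO cells, with overlapping libraries (edgeR adjusted p = 0.0335). Of all tested genes, 32.5% were higher and 30.9% lower in 1-1 KO cells, and 26.2% were lower in 1-2 KO cells. MT1A, a protein-coding copy at 9.59 ± 0.142 CPM in WT, fell by 0.44 on the log2 scale in 1-1 KO (SE 0.09, edgeR adjusted p = 0.000519) and by 1.00 in 1-2 KO cells (SE 0.09, edgeR adjusted p = 4.39e-07). MT1L, annotated as a transcribed pseudogene, differed by 0.37 in 1-1 KO (edgeR adjusted p = 0.0233) and by -1.02 in 1-2 KO cells (edgeR adjusted p = 3.74e-05). However, 100% of its windows also occur in a transcript of another annotated gene, ENSG00000291105, whose position was not compared. All 8 genes with a value of at least 1 CPM are shown in the plot of the cluster.

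**Figure D3:**
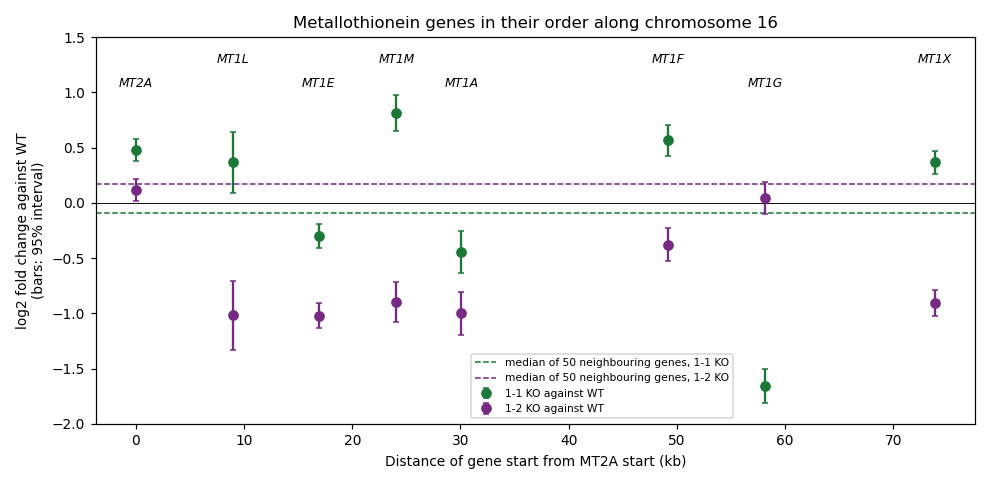
Log2 fold change against WT with 95% intervals for 8 metallothionein genes, by distance of the gene's start from that of MT2A in kb, in 1-1 KO (green) and 1-2 KO (purple) cells. Dashed lines mark the median of the 50 neighbouring genes, -0.10 and 0.17. MT1E and MT1A lie below 0 in both lines, and MT1G lies at -1.66 in 1-1 KO and 0.04 in 1-2 KO cells.

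MTF1, the transcription factor of the metal response (ENSG00000188786, chromosome 1, 37809574 to 37859592, minus strand), was at 42.5, 41.3 and 42.2 CPM in WT, 29.7, 30.5 and 30.3 CPM in 1-1 KO and 24.5, 26.3 and 27.8 CPM in 1-2 KO. Both knockouts lay below all WT libraries. MTF1 was 1.39-fold lower in 1-1 KO (log2 fold change -0.48, SE 0.05, edgeR adjusted p = 1.37e-06) and 1.60-fold lower in 1-2 KO cells (log2 fold change -0.68, SE 0.05, edgeR adjusted p = 5.11e-08). Its 50 neighbours had a median of -0.19 in 1-1 KO and -0.21 in 1-2 KO cells, and with these taken off its log2 fold change was -0.29 and -0.47, still past the threshold. Beside lower MTF1 mRNA, MT2A, MT1M, MT1F and MT1X were higher and MT1E and MT1G lower in 1-1 KO cells, while MT1E, MT1M, MT1F and MT1X were lower in 1-2 KO cells. MTF1 protein and free zinc were not measured here.

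SLC30A1, which moves zinc out of the cell across the plasma membrane (ENSG00000170385, chromosome 1, 211571568 to 211579161, minus strand), was at 86.7, 90.0 and 86.4 CPM in WT, 88.7, 83.5 and 89.5 CPM in 1-1 KO and 69.5, 67.9 and 65.8 CPM in 1-2 KO. WT and 1-1 KO libraries overlapped, and 1-2 KO libraries lay below both. The gene was 1.29-fold lower in 1-2 KO than in WT cells (log2 fold change -0.37, SE 0.04, edgeR adjusted p = 1.67e-06). In 1-1 KO cells its log2 fold change was -0.01 (95% interval -0.09 to 0.07, edgeR adjusted p = 0.872). Around it the 50 neighbours had a median of -0.24 in 1-1 KO cells, and relative to them its log2 fold change there was 0.24 (edgeR adjusted p = 0.000123).

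SLC39A14, the ZIP importer of zinc and iron that is abundant in liver (ENSG00000104635, chromosome 8, 22367278 to 22434129, plus strand), was at 539.8, 537.8 and 531.4 CPM in WT, 593.4, 601.6 and 600.1 CPM in 1-1 KO and 754.2, 754.4 and 763.0 CPM in 1-2 KO. The lines did not overlap, in the order WT, 1-1 KO, 1-2 KO from low to high. It was 1.12-fold higher in 1-1 KO (log2 fold change 0.16, SE 0.03, edgeR adjusted p = 0.000396) and 1.41-fold higher in 1-2 KO cells (log2 fold change 0.50, SE 0.03, edgeR adjusted p = 6.45e-09). It was the only one of the 10 genes called higher in both knockouts, and the only one called higher in 1-2 KO cells.

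SLC39A4, the ZIP importer that takes up dietary zinc in the gut and is mutated in acrodermatitis enteropathica (ENSG00000147804, chromosome 8, 144409742 to 144416844, minus strand), was counted 7, 3 and 2 times in WT libraries, 72, 74 and 66 in 1-1 KO and 4, 5 and 6 in 1-2 KO. The 1-1 KO libraries lay far above the rest, and WT and 1-2 KO overlapped at a few counts. Its level was 0.106 ± 0.0607 CPM in WT, 1.71 ± 0.0908 CPM in 1-1 KO and 0.123 ± 0.0274 CPM in 1-2 KO cells (SD, n = 3). The log2 fold change in 1-1 KO cells was 3.92 (95% interval 3.32 to 4.52, edgeR adjusted p = 2.41e-08), or 15.1-fold. Between 1-2 KO and WT cells no difference was detectable at this depth (log2 fold change 0.16, 95% interval -0.85 to 1.16, edgeR adjusted p = 0.829). Its 50 neighbours had a median of 0.49 in 1-1 KO cells. An antisense RNA that overlaps it, ENSG00000272115, had at most 7 counts in a library, but up to 175% of the SLC39A4 count. The use of strand in the counting is not given, and any part of this RNA in the low counts was not tested.

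The knockouts were also compared with each other. All 10 genes differed between 1-2 KO and 1-1 KO cells, 2 higher and 8 lower in 1-2 KO, beside 65.3% of all tested genes (33.1% higher and 32.2% lower). No library of one knockout overlapped those of the other in any of the 10, beside 69.8% of all tested genes, and 4 passed 2-fold, beside 14.1%. MT1G was 3.26-fold higher in 1-2 KO cells (log2 fold change 1.70, edgeR adjusted p = 7.54e-11), and SLC39A14 was 1.27-fold higher (log2 fold change 0.34, edgeR adjusted p = 2.05e-07). SLC39A4 was 13.6-fold lower (log2 fold change -3.76, edgeR adjusted p = 1.62e-08) and MT1M 3.27-fold lower (log2 fold change -1.71, edgeR adjusted p = 2.03e-10). MT1X, MT1F and MT1E were 2.42-fold, 1.92-fold and 1.65-fold lower, MT2A and SLC30A1 were each 1.29-fold lower, and MTF1 was 1.15-fold lower (edgeR adjusted p = 0.00284). Without replicate 1 of the 1-2 KO cells, all 10 were again called between the knockouts, and against WT the count of called genes was 8 in place of 7, MT2A being the one added.

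The rest of the zinc transporters are given for context, from lists of the family members. Of 9 other exporters tested, 4 were higher and 1 lower in 1-1 KO cells, with a median log2 fold change of 0.10. In 1-2 KO cells 4 were higher and 3 lower, with a median of 0.66. Called were 55.6% and 77.8% of the list, beside 63.4% and 54.4% of all tested genes. SLC30A2, SLC30A3 and SLC30A4, called higher, were at only 0.18, 0.56 and 1.79 CPM in 1-2 KO cells, and TMEM163, not called, at 0.29 CPM. The more abundant SLC30A5, SLC30A6, SLC30A7, SLC30A9 and SLC30A10 were at -0.27, -0.11, -0.60, -0.07 and 0.66 there. SLC30A10, which exports manganese and zinc, was at 28.9 ± 1.27 CPM in WT, 28.2 ± 1.55 in 1-1 KO and 45.8 ± 0.984 in 1-2 KO cells, a log2 fold change of 0.66 in the last (edgeR adjusted p = 8.02e-08). SLC30A7, which loads zinc into the Golgi, fell by 0.60 in 1-2 KO cells (edgeR adjusted p = 3.54e-07). SLC30A5, which also loads the early secretory pathway, fell by 0.45 in 1-1 KO cells (edgeR adjusted p = 2.35e-06) and its partner SLC30A6 rose by 0.21 there (edgeR adjusted p = 0.000495).

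A pair of low exporters was chosen after the values were seen. SLC30A4 had 3, 0 and 4 counts in WT, 7, 9 and 16 in 1-1 KO and 80, 74 and 65 in 1-2 KO libraries, so that only the 1-2 KO libraries were well above a few counts. Its log2 fold change in 1-2 KO cells was 4.73 (95% interval 3.85 to 5.61, edgeR adjusted p = 2.56e-07) and in 1-1 KO cells 1.95 (95% interval 0.66 to 3.24, edgeR adjusted p = 0.0111), both fitted against a few WT counts and so uncertain in size. SLC30A2 had 1, 2 and 0 counts in WT, 21, 25 and 32 in 1-1 KO and 5, 6 and 11 in 1-2 KO libraries, and the lines did not overlap. No fold is given for it, since WT held only 3 counts in all. The medians of the list are those of fitted values. Setting SLC30A2 to its fold over a floor of 3 counts per WT library could not move them, since the gene stayed above each median. SLC30A3, SLC30A4 and TMEM163, which were also low, were left as fitted, so the medians remain uncertain.

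Of 10 other ZIP importers tested, 6 were higher and 3 lower in 1-1 KO cells, with a median log2 fold change of 0.26, and 1 was higher and 4 lower in 1-2 KO cells, with a median of -0.13. SLC39A7, which releases zinc from the endoplasmic reticulum, was at 280 ± 12.4 CPM in WT, 336 ± 1.09 in 1-1 KO and 200 ± 4.73 in 1-2 KO cells, with log2 fold changes of 0.26 (edgeR adjusted p = 2.54e-05) and -0.48 (edgeR adjusted p = 8.05e-08). SLC39A5, an importer of the hepatocyte surface, rose by 0.52 in 1-1 KO cells (edgeR adjusted p = 7.03e-06) and was at -0.16 in 1-2 KO cells (edgeR adjusted p = 0.0571). SLC39A1 fell by 0.50 in 1-1 KO (edgeR adjusted p = 0.00108) and SLC39A11 fell by 0.56 in 1-2 KO cells (edgeR adjusted p = 4.64e-07). The importer called higher in 1-2 KO cells beside SLC39A14 was SLC39A10, at 0.17 (edgeR adjusted p = 0.00471), named here after its value was seen. The 4 of 10 called lower there stand beside 26.2% of all tested genes, and the 6 of 10 called higher in 1-1 KO cells beside 32.5%.

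**Figure D4:**
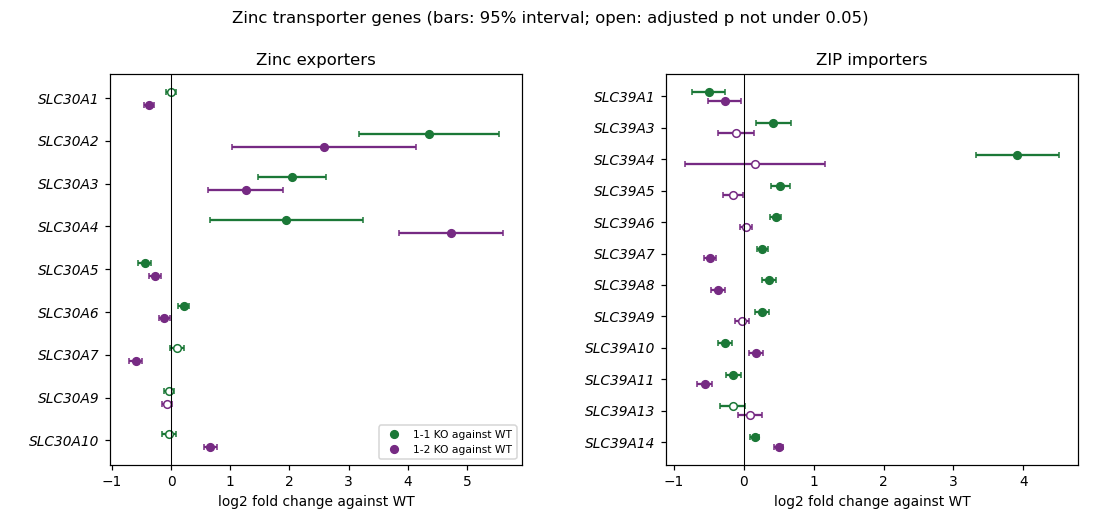
Log2 fold change against WT with 95% intervals for the tested zinc exporters of the SLC30 family (left) and ZIP importers (right) in 1-1 KO (green) and 1-2 KO (purple) cells. Open points have an edgeR adjusted p not under 0.05, and TMEM163 is not drawn. The fitted point of SLC30A2 rests on at most 2 counts per WT library. Farthest to the right are SLC30A4 in 1-2 KO at 4.73, the fitted point of SLC30A2 in 1-1 KO, uncertain in size, and SLC39A4 in 1-1 KO at 3.92.

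Metallothionein genes also respond to copper, oxidative and heat stress, glucocorticoids and interleukin-6, and genes of these responses were counted beside them. Of 12 copper-handling genes, 5 were higher and 2 lower in 1-1 KO cells and 3 higher and 5 lower in 1-2 KO cells. That is 58.3% and 66.7% called, beside 63.4% and 54.4% of all tested genes. Ceruloplasmin (CP), the copper carrier of plasma, fell by 0.68 (edgeR adjusted p = 4.09e-09) and the copper pump ATP7B rose by 0.55 (edgeR adjusted p = 9.67e-09) in 1-1 KO cells, while the pump ATP7A fell by 0.71 (edgeR adjusted p = 2.18e-05) and the copper chaperone COX17 by 0.29 (edgeR adjusted p = 0.000275) in 1-2 KO cells. The list had a median of 0.12 on the log2 scale in 1-1 KO cells and of 0.02 in 1-2 KO cells.

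Of 12 metal and heat stress genes, 4 were higher and 5 lower in 1-1 KO cells (median 0.0031) and 4 higher and 6 lower in 1-2 KO cells (median -0.13). Called were thus 75.0% and 83.3%, beside 63.4% and 54.4% of all tested genes. The heat shock gene HSPA1B rose by 0.93 (edgeR adjusted p = 6.56e-08) and GCLM, a subunit of the enzyme of glutathione synthesis, fell by 0.88 (edgeR adjusted p = 1.39e-10) in 1-1 KO cells. Other heat shock genes of the list were mixed there. DNAJB1 was at 0.46, HSPA1A at 0.15 (not called, edgeR adjusted p = 0.0525), HSPH1 at -0.26 and HSPA8 at -0.34. HSPA1B and HSPA8 were at -0.43 and -0.18 in 1-2 KO cells, and HSPA1A, DNAJB1 and HSPH1 at 0.21, 0.19 and 0.14. In 1-2 KO cells thioredoxin reductase TXNRD1 fell by 0.71 (edgeR adjusted p = 1.02e-09) and the cystine transporter SLC7A11 rose by 0.61 (edgeR adjusted p = 6.31e-08). GCLM also fell by 0.36 in 1-2 KO (edgeR adjusted p = 1.67e-06) and TXNRD1 by 0.47 in 1-1 KO cells (edgeR adjusted p = 6.34e-08), while SLC7A11 was at 0.04 in 1-1 KO cells (edgeR adjusted p = 0.501).

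Of 13 genes of the glucocorticoid and interleukin-6 response, 5 were higher and 3 lower in 1-1 KO cells (median 0.02) and 7 higher and 5 lower in 1-2 KO cells (median 0.24). Called were thus 61.5% and 92.3%, beside 63.4% and 54.4% of all tested genes. The interleukin-6 targets CEBPD and SOCS3 rose by 1.55 (edgeR adjusted p = 0.000258) and 1.13 (edgeR adjusted p = 4.97e-06) in 1-1 KO cells. In WT cells these were low, at 0.835 and 1.51 CPM. The receptor chains IL6ST and IL6R fell by 0.85 (edgeR adjusted p = 1.33e-10) and 0.80 (edgeR adjusted p = 1.47e-07) in 1-2 KO cells. SOCS3 nevertheless rose by 0.79 in 1-2 KO cells (edgeR adjusted p = 0.000239), where CEBPD was at 0.54 (edgeR adjusted p = 0.164). CEBPB, also on the list, was at -0.09 in 1-1 KO (edgeR adjusted p = 0.69) and rose by 0.59 in 1-2 KO cells (edgeR adjusted p = 0.015). The other called genes of the list went both ways. KLF9, TSC22D3 and DUSP1 were at 0.89, 0.88 and 0.20 in 1-1 KO cells, and JAK1, NR3C1 and FKBP5 at -0.15, -0.28 and -0.45. DUSP1, PER1, KLF9, NR3C1 and TSC22D3 were at 0.48, 0.44, 0.29, 0.24 and 0.20 in 1-2 KO cells, and JAK1, STAT3 and FKBP5 at -0.16, -0.26 and -0.41. Any part of these genes in the changes of the metallothioneins was not tested.

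The genes most like MT2A and SLC30A1 were sought by the root mean square difference of log2 CPM, each centred on its gene's mean, over the 9 libraries, among 13257 genes. Nearest to MT2A were PIP4P1 at a difference of 0.045, ZFAND5 at 0.046 and FAM220A at 0.051. Nearest to SLC30A1 were HMGA2 at 0.027, C9orf78 at 0.034 and DNAJC8 at 0.036. These 9 points come from 3 lines, so that likeness here mostly reflects 3 levels.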

How the data were processed

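RNA of 3 Huh-7 lines, in triplicate, was sequenced as stranded mRNA libraries. According to the study's methods, the authors ran STAR on paired reads of 50 bp, with hg38 and version 104 of its annotation, and obtained counts by gene from featureCounts. The deposited values are these raw read counts, unnormalized. The use of strand, of multi-mapping reads and of fragments is not given in the sources used here. Symbols and positions came from GENCODE 44 on GRCh38, and 60463 of 60664 identifiers matched. The other 201 held 0.0192% of the counts.

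Counts were tested with edgeR 4.0.16 in R 4.3.3 after filterByExpr (minimum count 10, minimum total 15) and TMM scaling, with all 9 libraries in 1 fit and Benjamini-Hochberg adjustment over 17207 genes at 0.05. Intervals are 95%, from the quasi-likelihood degrees of freedom. CPM values use the TMM-scaled library sizes, and TPM values the canonical transcript length. The pipeline was tested on simulated data. DESeq2 1.42.0, limma 3.58.1, Python 3.11.15, pandas 2.3.3, numpy 2.4.6 and matplotlib 3.10.9 were also used. Alternatives were DESeq2 and its size factors, library size alone, other filters, only the 2 groups compared, a replicate block, an adjusted p under 0.01, subtraction of the median of 50 neighbouring genes, and leaving out each library.

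The members, gene lists and tests were chosen with earlier results of these data known. The named genes are the 10 members, of each list the 2 called genes with the largest change per knockout among those with at least 1 CPM on average, and for MT2A and SLC30A1 the 3 most similar genes. SLC30A2, SLC30A3, SLC30A4, SLC30A9, TMEM163, SLC39A10 and CEBPB, and values of some named genes in the other knockout, were added after their values were seen. The same holds for MT1DP, HSPA1A, HSPA8, HSPH1, DNAJB1, KLF9, TSC22D3, DUSP1, PER1, NR3C1, FKBP5, JAK1 and STAT3.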

Additional observations from a re-analysis of the deposited data

Results flagged for a closer look

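All 10 genes were listed for a closer look because their changes in the 2 knockout lines differed by the direct test of 1-2 KO against 1-1 KO cells (edgeR's quasi-likelihood test). On the log2 scale the differences were -3.76 for SLC39A4, -1.71 for MT1M, -1.27 for MT1X, -0.94 for MT1F, -0.72 for MT1E, -0.36 for MT2A, -0.36 for SLC30A1 and -0.20 for MTF1, all lower in 1-2 KO cells. They were 1.70 for MT1G and 0.34 for SLC39A14, higher in 1-2 KO cells. Over all tested genes, 65.3% differed in this comparison.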

How the results depend on the processing

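Of 536 values of single genes under an alternative, 521 kept direction and side of the threshold, 4 newly passed it in the same direction and 11 changed sign, 1 of which also newly passed it. The 4, all of MT2A in 1-2 KO cells, are given with that gene. SLC30A1 in 1-1 KO cells changed sign to 0.043 with library size alone, 0.014 with the filter of 10 counts in each library, 0.0090 without WT replicate 2, 0.023 without 1-1 KO replicate 2 and 0.24 with the neighbours' median taken off, where it newly passed the threshold (edgeR adjusted p = 0.000123), and ranged from -0.026 to 0.023 when libraries were left out. SLC39A4 in 1-2 KO cells changed to -0.032 without WT replicate 2, -0.090 without WT replicate 3, -0.0015 without 1-2 KO replicate 3 and -0.091 against its neighbours, and ranged from -0.090 to 0.74 when libraries were left out. Against their neighbours, MT1G and MT2A in 1-2 KO cells were at -0.13 and -0.057. None of these 11 main values had passed the threshold, and the cause was not tested. Relative to neighbours, the difference between knockouts was -0.63 for MT2A and -0.63 for SLC30A1.

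The number of genes called, leaving out each library, was 9 in 1-1 KO, 7 to 8 in 1-2 KO and 10 between the knockouts. The same-numbered libraries did not deviate together (correlations -0.187 to 0.0474), and with the replicate block 9, 7 and 10 genes were called. Summing all metallothionein genes gave 299 CPM in WT, 336 CPM in 1-1 KO and 235 CPM in 1-2 KO cells. The means were 1.12 and 0.79 times WT, against 1.14 and 0.80 for the sum of the 6 members. SLC39A4 was not tested with at least 10 counts in every library, and its few counts limit what can be seen outside 1-1 KO cells.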
